A study of Rattus norvegicus with 24 samples.

Results

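The superfamily described here comprised 6 mature miRNAs of 728 in the rat count tables. rno-miR-15b-5p, rno-miR-16-5p, rno-miR-195-5p and rno-miR-497-5p were chosen by name as the miR-15/16 type, and rno-miR-103-3p and rno-miR-107-3p as the miR-103 and miR-107 type. The species prefix is left out below. All 6 were tested in every comparison. Small RNA libraries were made from perilesional cortex and ipsilateral thalamus of adult male Sprague-Dawley rats, 3 months after surgery. Of the 12 rats, 6 had a traumatic brain injury (TBI) by lateral fluid percussion, a model that hits the dura with a fluid pulse, and 6 were sham-operated controls. Every rat gave 1 library per region, so the 24 libraries formed 4 groups of 6. The study took for sequencing TBI rats with chronic perilesional inflammation on MRI, so the injured groups stand for such rats and not for all injured rats. The pieces of a region were pooled within a rat.

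A miRNA guides an Argonaute protein to messenger RNAs, mainly through its seed, bases 2 to 8 from the 5′ end, and lowers their translation and stability. miRNAs of the miR-15/16 type are known for repressing regulators of the cell cycle and of cell survival, among them cyclin D1, cyclin E1 and BCL2. miR-103 and miR-107 are known for roles in insulin signalling and lipid metabolism and for repressing Dicer, the enzyme that cuts miRNA precursors. Both types are counted as 1 superfamily because the letters AGCAGCA recur at their 5′ ends.

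The mature sequences show how that stretch is placed in each member. They were taken from RefSeq (assembly GRCr8), written 5′ to 3′, with the seed in capitals.
miR-15b-5p: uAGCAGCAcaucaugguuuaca
miR-16-5p: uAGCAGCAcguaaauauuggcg
miR-195-5p: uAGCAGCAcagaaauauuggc
miR-497-5p: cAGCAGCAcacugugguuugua
miR-103-3p: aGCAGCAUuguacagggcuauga
miR-107-3p: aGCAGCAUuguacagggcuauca

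The 4 miRNAs of the miR-15/16 type shared the seed AGCAGCA, which pairs with UGCUGCU in a target. In miR-103-3p and miR-107-3p the same letters began at base 1, so that the seed became GCAGCAU and the matching site AUGCUGC. Between miR-103-3p and miR-107-3p, 22 of 23 bases were identical, and the 1 difference was G22C, counted from the 5′ end with the base of miR-103-3p first. Between miR-16-5p and miR-195-5p, 19 of 21 compared bases were identical. Among 693 mature rat miRNAs in RefSeq, 1 other had the seed AGCAGCA, namely miR-322-5p, and none other had GCAGCAU. How reads that fit several of these sequences were divided is not given in the sources used here, so a part of the counts of near-identical members may be shared.

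The members come from separate loci. In GRCr8, miR-15b-5p (chr2:155555197-155555218, plus strand) and miR-16-5p (chr2:155555343-155555364, plus strand) lay 124 bases apart within Smc4, a condensin subunit gene. miR-497-5p (chr10:55450172-55450193, plus strand) and miR-195-5p (chr10:55450509-55450529, plus strand) lay 315 bases apart, with no other gene overlapping their precursors. The precursors of miR-103-3p overlapped Pank3 and Pank2, and that of miR-107-3p overlapped Pank1, all genes of pantothenate kinases, which start the synthesis of coenzyme A. miR-103-3p is listed at chr3:138963278-138963300 (plus strand), in Pank2, and miR-107-3p at chr1:241750431-241750453 (minus strand).

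A cortex library held 744564 to 4069284 miRNA reads and a thalamus library 523298 to 4139901. The thalamus libraries of sham rat 55 (523298 reads) and TBI rat 56 (538194 reads) stood apart from the others, of which the shallowest held 1359398. In cortex the libraries of sham rats 50 (744564 reads) and 55 (879206 reads) and of TBI rat 56 (757810 reads) were the shallowest, and the next held 1279106. Levels are given as CPM, counts per 1000000 miRNA reads after scaling by trimmed mean of M-values (TMM), a factor that corrects a library for its composition. For the levels these factors were taken over all 24 libraries, whereas each fit took its own from the libraries it compared. Ratios of mean levels can therefore depart from the fitted fold changes. In sham cortex the factors of the levels lay between 0.718 and 0.923, and in TBI cortex between 0.919 and 1.05. Summed neuronal marker miRNAs reached 257818 to 619209 CPM over the cortex libraries. Oligodendrocyte markers were also detected in every library.

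The superfamily as a whole made up little of the miRNA pool, at 0.404% ± 0.0857 of miRNA reads in sham cortex (SD, n = 6) and 0.658% ± 0.166 in TBI cortex. In thalamus its share was 0.694% ± 0.236 in sham and 0.714% ± 0.296 in TBI rats (SD, n = 6). These shares are of raw reads, without the TMM factors, which were lower in sham than in TBI cortex. With TMM scaling the cortical sums lay closer, at 4824 ± 616 CPM in sham and 6624 ± 1447 CPM in TBI (SD, n = 6). miR-103-3p alone held 72.1% to 81.8% of the reads of the 6 members in any library. The order of levels was miR-103-3p, miR-16-5p, miR-107-3p, miR-195-5p, miR-497-5p and miR-15b-5p, from high to low, in 24 of 24 libraries.

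The steps in this order were unequal. miR-103-3p was 4.53 to 8.53 times as high as miR-16-5p within a library, and the ranges of these neighbours did not overlap in any group. miR-16-5p and miR-107-3p overlapped in their ranges over rats in 3 of 4 groups, the exception being sham cortex, although miR-16-5p was the higher of them in every library. miR-195-5p and miR-497-5p overlapped in both thalamus groups and in neither cortex group. Levels of different miRNAs are read counts of small RNA libraries, in which ligation efficiency can differ between sequences, so this order is one of reads.

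**Figure D1:**
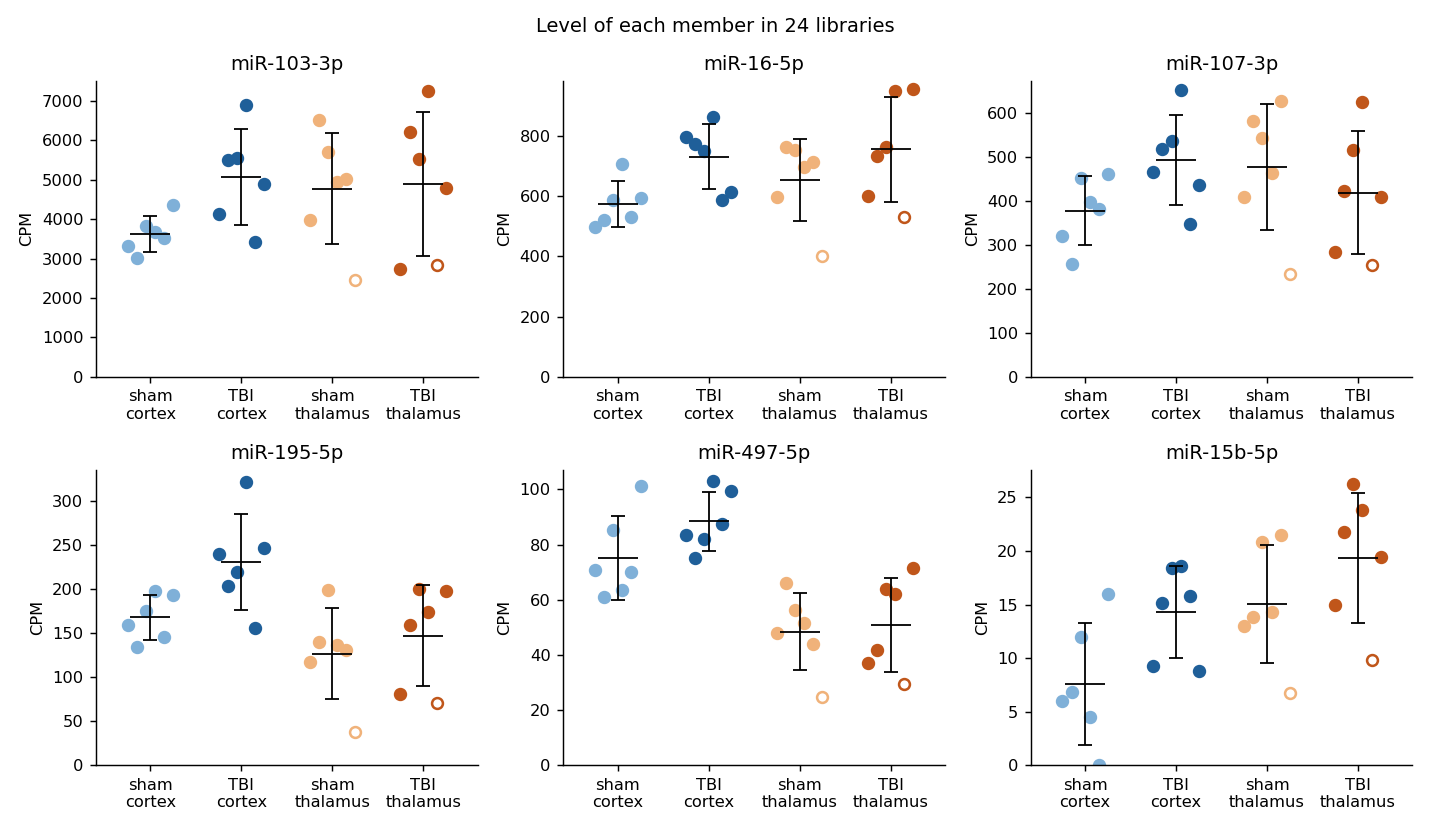
CPM of each member (vertical axes, linear, separate scales) in the 4 groups, with 1 point per rat and bars for the mean ± SD (n = 6); open points mark the shallow thalamus libraries of sham rat 55 and TBI rat 56. In cortex the TBI points of all 6 members centred above the sham points with overlap, and the cortex points of miR-497-5p centred above its thalamus points.

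The first comparison asked whether injury changed these miRNAs in the perilesional cortex. The fitted log2 fold change of all 6 members was above 0, from 0.29 to 0.96, but none passed the adjusted threshold of 0.05 in edgeR's quasi-likelihood test. Of all 371 miRNAs tested, 5.66% passed. The CPM ranges of TBI and sham overlapped for all 6, against 2.43% of all miRNAs without overlap. At an unadjusted p under 0.05, 5 of 6 members passed, against 21.8% of all miRNAs in either direction and 13.7% that passed and were higher in TBI. The median log2 fold change was 0.48 over the members and 0.05 over all miRNAs tested, and 57.4% of all miRNAs had a value above 0.

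miR-103-3p, the most abundant member, came nearest to the threshold. Its level was 3017, 3592 and 4366 CPM in sham cortex (lowest, median and highest) and 3424, 5199 and 6905 CPM in TBI cortex. The groups overlapped, since TBI rats 56 (3424 CPM) and 22 (4121 CPM) lay within the sham range and the other 4 TBI rats lay above it. The means were 3622 ± 462 CPM in sham and 5066 ± 1218 CPM in TBI (SD, n = 6). The log2 fold change was 0.54 (SE 0.17, edgeR adjusted p = 0.0693). It passed the threshold in 6 of 20 alternatives, with adjusted p from 0.0246 to 0.306 over all of them. Among those that passed were DESeq2 (0.50, adjusted p = 0.0354) and 3 edgeR fits that left out 1 rat. These were the fits without TBI rat 56 (0.53, adjusted p = 0.0246), TBI rat 22 (0.56, adjusted p = 0.0393) or sham rat 55 (0.52, adjusted p = 0.0444).

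miR-107-3p, which differs from miR-103-3p in 1 base, had a similar fitted value. It measured 257, 390 and 461 CPM in sham cortex (lowest, median and highest) and 347, 492 and 652 CPM in TBI cortex. Its fitted log2 fold change was 0.44 (SE 0.18, edgeR adjusted p = 0.157), and it passed in 0 of 20 alternatives. TBI rats 56 and 63 lay within the sham range, and the other 4 TBI rats lay above every sham rat.

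miR-16-5p, the most abundant of the miR-15/16 type, measured 497.4, 559 and 709 CPM in sham cortex and 587, 763 and 865 CPM in TBI cortex (lowest, median and highest). TBI rats 22, 24, 45 and 52 lay above every sham rat, while TBI rats 56 and 63 lay within the sham range. This was a log2 fold change of 0.40 (SE 0.13, edgeR adjusted p = 0.0782). It passed in 2 of 20 alternatives, DESeq2 (0.36, adjusted p = 0.0399) and library-size scaling, with adjusted p from 0.0253 to 0.313 over all of them.

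miR-195-5p, which shares most of its sequence with miR-16-5p, measured 135, 168 and 198 CPM in sham cortex and 156, 230 and 321.5 CPM in TBI cortex (lowest, median and highest). TBI rat 56 (156 CPM) lay inside the sham range, and the other 5 TBI rats lay above it. Its log2 fold change was 0.52 (SE 0.17, edgeR adjusted p = 0.0926). miR-497-5p, its neighbour in the genome, overlapped more, at 60.9 to 101 CPM in sham and 75.1 to 103.2 CPM in TBI. Its log2 fold change was 0.29 (SE 0.17, edgeR adjusted p = 0.288).

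miR-15b-5p had the highest fitted value and the fewest reads. It was counted 0 to 21 times per library in sham cortex and 11 to 43 times in TBI cortex. Sham rat 50 had 0 reads, which allows up to 4.67 CPM (3 reads of that library, counting error only). The levels were 7.58 ± 5.67 CPM in sham and 14.3 ± 4.32 CPM in TBI (SD, n = 6), and the groups overlapped between 8.80 and 16.0 CPM. The log2 fold change was 0.96 (SE 0.42, edgeR adjusted p = 0.194), and it passed in 0 of 19 alternatives.

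TBI rat 56, one of the shallow cortex libraries, lay within the sham range for all 6 members. Without the shallow cortex libraries of rats 50, 55 and 56, an alternative chosen after seeing the data, the members ran from 0.28 to 0.87. miR-103-3p then passed (0.58, edgeR adjusted p = 0.0432), and the other 5 did not, with adjusted p from 0.108 to 0.338.

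Scaling moved all cortical values together. With library size only, the median log2 fold change over all miRNAs tested went from 0.05 to 0.25, and miR-103-3p (0.73, adjusted p = 0.0276 in edgeR), miR-16-5p (0.61, adjusted p = 0.0253) and miR-195-5p (0.72, adjusted p = 0.034) passed. With the tRNA features of the cortex table in the same fit, the median went to -0.07, and the members ranged from 0.17 to 0.83 with adjusted p from 0.228 to 0.685 in edgeR. All 6 stayed above 0 under every alternative run.

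Marker miRNAs of other cells gave the following values in the same comparison. Of the 6 neuronal markers, 2 were called lower in TBI cortex, miR-128-3p (log2 fold change -0.75, SE 0.16, adjusted p = 0.0231 in edgeR) and miR-132-3p (-0.55, SE 0.14, adjusted p = 0.0369). The others of that list were not called. Its median log2 fold change was -0.22, and miR-124-3p lay above 0 (0.15). The neuronal list summed to 257818 to 341131 CPM in TBI and 339782 to 619209 CPM in sham. Of the muscle markers, 1 of 3 was called lower, miR-1-3p (-0.62, SE 0.15, adjusted p = 0.0361 in edgeR). The 4 leukocyte and microglia markers had a median log2 fold change of 0.56 with 0 called, and summed to 861 to 1872 CPM in TBI and 788 to 1282 CPM in sham. Red blood cell markers, of interest because miR-16 is also abundant in those cells, summed to 22.0 to 105 CPM in TBI and 32.8 to 57.9 CPM in sham, with 0 of 2 tested called. No marker of these lists was at 0 in every library. None of the tested markers of oligodendrocytes, endothelium, vascular smooth muscle or epithelium was called. Of the 4 epithelial markers only 1 was tested (log2 fold change 0.79). That list summed to 12.5 to 129 CPM in TBI and 6.16 to 15.5 CPM in sham. The part of these cells in the members' values was not tested, and in such tissue pieces fewer cells of a type and less RNA per cell cannot be told apart.

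**Figure D2:**
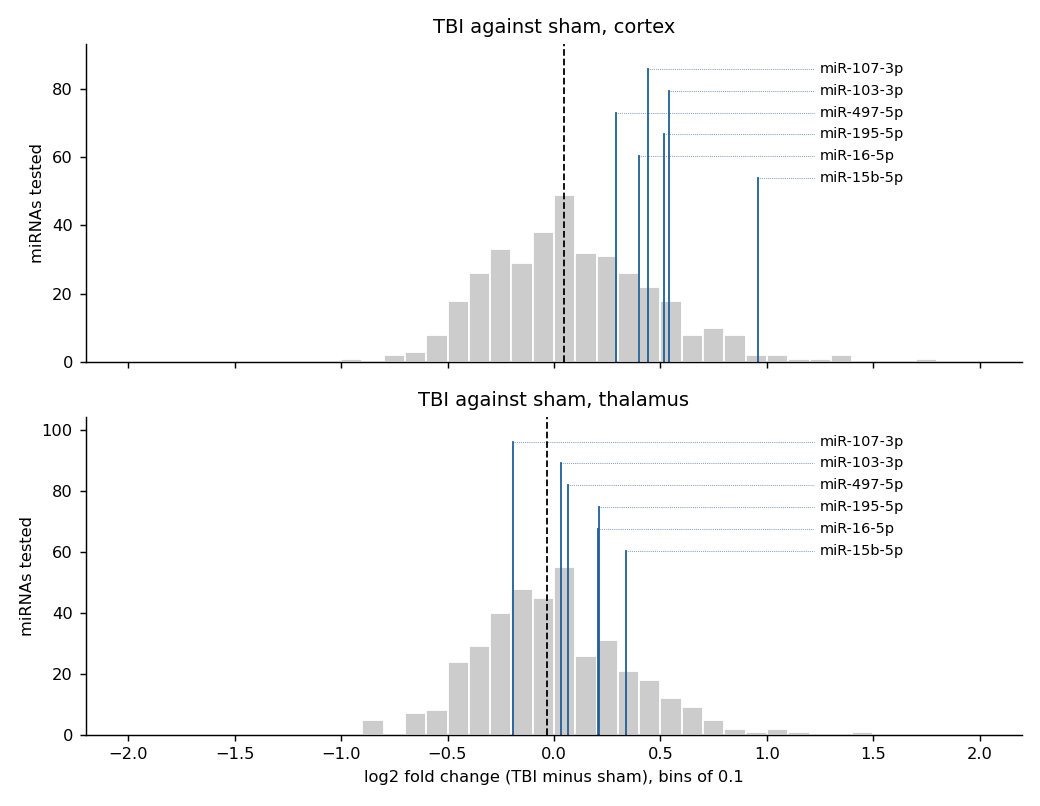
Number of miRNAs (vertical axis) by log2 fold change, TBI minus sham (horizontal axis, bins of 0.1), for 371 miRNAs in cortex and 390 in thalamus; blue lines mark the members and the dashed line the median of all. In cortex the members lay at 0.29 to 0.96, above the median of 0.05, and in thalamus at -0.19 to 0.34 around a median of -0.03.

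In the thalamus, 0 of 6 members differed between TBI and sham rats at either an adjusted or an unadjusted p of 0.05 in edgeR, where 0.513% and 5.64% of the 390 miRNAs tested did. DESeq2 and every other alternative called 0 of them too, and the groups overlapped for all 6, where 1.28% of all miRNAs did not overlap. The fitted values were 0.34 (SE 0.26) for miR-15b-5p, 0.21 (SE 0.20) for miR-16-5p and 0.21 (SE 0.33) for miR-195-5p. They were 0.07 (SE 0.25) for miR-497-5p, 0.03 (SE 0.27) for miR-103-3p and -0.19 (SE 0.26) for miR-107-3p, and adjusted p ran from 0.807 to 0.986 in edgeR. The median was 0.14 over the members and -0.03 over all miRNAs.

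The spread between rats was wide in this region. miR-103-3p measured 2458, 4992 and 6511 CPM in sham thalamus and 2722, 5162 and 7266 CPM in TBI thalamus (lowest, median and highest). miR-16-5p measured 403, 706 and 763 CPM in sham and 533, 750 and 956 CPM in TBI. The shallow library of sham rat 55 was the lowest sham library for all 6 members. The shallow library of TBI rat 56 was the lowest TBI library for 5 members, and second lowest after rat 22 for miR-103-3p. Without both libraries, chosen after seeing the data, the members' values ran from -0.22 to 0.35 with adjusted p from 0.660 to 0.988 in edgeR.

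An interaction term in a fit of all 24 libraries tested whether the injury effect differed between cortex and thalamus. This fit did not pair the libraries of a rat. The difference (injury effect in cortex minus that in thalamus) was above 0 for all 6 members, from 0.15 (SE 0.24) for miR-16-5p to 0.57 (SE 0.33) for miR-107-3p. None was called, and of the 407 miRNAs tested 0% passed in edgeR. At an unadjusted p under 0.05, 0 members passed, against 3.93% of all. DESeq2 and an edgeR fit with the rat as a block each called 0 miRNAs too. The lowest unadjusted p of a member was 0.0914 in the edgeR fit without a block, for miR-107-3p. Over all miRNAs 51.4% had a difference above 0, with a median of 0.01. Without both libraries of rats 55 and 56 the members ran from 0.26 to 0.82, with adjusted p from 0.377 to 0.766 in edgeR. An injury effect in one region only was thus not shown.

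**Figure D3:**
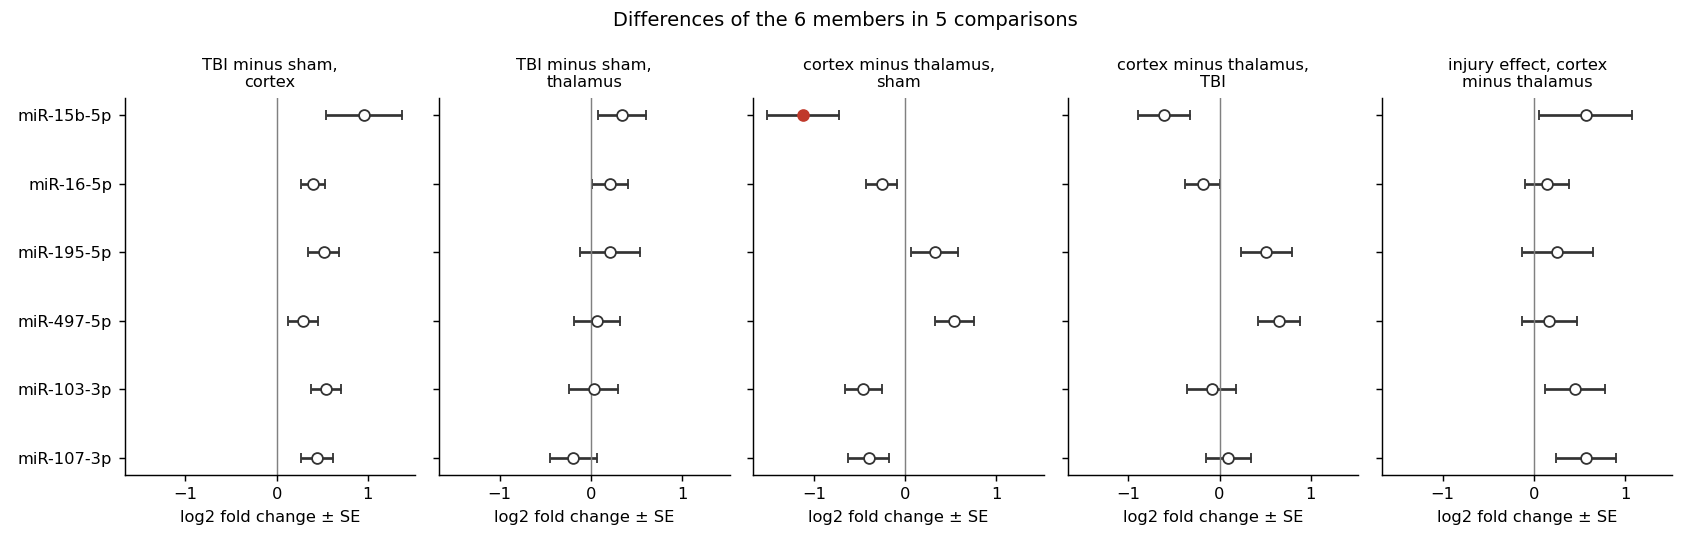
Log2 fold change ± SE (horizontal axis) of the 6 members in edgeR's quasi-likelihood fits for 5 comparisons (panels), with a red point where the adjusted p was under 0.05. The fits shown did not pair the libraries of a rat. The 1 red point is miR-15b-5p in sham rats, at -1.12, and all cortex injury values lie above 0.

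Cortex and thalamus were also compared within sham and within TBI rats, coded as cortex minus thalamus. In sham rats 1 of 6 members was called, against 24.3% of the 375 miRNAs tested, and in TBI rats 0 of 6, against 21.0% of 386. At an unadjusted p under 0.05 in edgeR, 3 of 6 passed in sham rats (36.8% of all) and 1 of 6 in TBI rats (32.6% of all). These fits did not pair the libraries of a rat. With the rat as a block, so that they were paired, miR-15b-5p was not called in sham rats (edgeR adjusted p = 0.0653). In TBI rats the block called miR-15b-5p (edgeR adjusted p = 0.0409), miR-195-5p (0.0171) and miR-497-5p (0.00682). Over all miRNAs that fit called 150 of the 386 tested, so calls were common in it. The 2 clusters of the miR-15/16 type had opposite fitted signs in both groups of rats. miR-15b-5p and miR-16-5p were below 0 (-1.12 and -0.26 in sham, -0.61 and -0.18 in TBI), and miR-195-5p and miR-497-5p were above 0 (0.32 and 0.54 in sham, 0.51 and 0.65 in TBI). The exception over the alternatives run was miR-195-5p in sham rats, which turned to -0.08 with library size only, a scaling that moved the median of all miRNAs from -0.08 to -0.45.

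Cell type markers moved with the region too. In both groups of rats 4 of 6 neuronal markers were higher and 3 of 3 oligodendrocyte markers lower in cortex, the latter summing to 3584 to 4320 CPM in sham cortex and 10135 to 17583 CPM in sham thalamus. Of the 3 vascular smooth muscle markers 2 were higher in cortex in sham rats and 0 in TBI rats, and 2 of 3 muscle markers were higher in both. Their part in the members' values was not tested.

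miR-15b-5p was lower in sham cortex than in sham thalamus. Its level was 0, 6.43 and 16.0 CPM in cortex and 6.71, 14.1 and 21.5 CPM in thalamus (lowest, median and highest). Sham rat 55 was the highest of the cortex group (16.0 CPM) and the lowest of the thalamus group (6.71 CPM, 3 reads), so that the groups overlapped. The regional log2 fold change was -1.12 (SE 0.40, edgeR adjusted p = 0.0496). With the rat as a block, which pairs the libraries of 1 animal, it was -1.17 (adjusted p = 0.0653). Leaving out single rats gave -0.86 to -1.36 with adjusted p from 0.00736 to 0.154, and the call was kept in 1 of 6 such fits, the one without rat 55. It was also lost with RLE size factors (adjusted p = 0.0544 in edgeR) and with no filter on low counts (adjusted p = 0.0509), and kept with DESeq2 and library size only, so that it passed in 3 of 11 alternatives. In TBI rats the value was -0.61 (SE 0.28, edgeR adjusted p = 0.150), and -0.64 (adjusted p = 0.0409) with the block. Its other arm, miR-15b-3p, was also lower in sham cortex (-1.14, SE 0.35, adjusted p = 0.0244 in edgeR), with counts of 0 to 13 in the cortex libraries.

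In TBI rats miR-497-5p was the 1 member of 6 whose cortex and thalamus ranges did not overlap. It measured 75.1, 85.5 and 103.2 CPM in TBI cortex and 29.5, 51.8 and 71.3 CPM in TBI thalamus (lowest, median and highest). All 6 cortex libraries thus lay above all 6 thalamus libraries, but narrowly, at 75.1 against 71.3 CPM. These levels used TMM factors over all 24 libraries, and whether the separation holds under the factors of the fit was not checked. Of all miRNAs tested in TBI rats, 11.4% had groups that did not overlap. The regional log2 fold change was 0.65 (SE 0.23, edgeR adjusted p = 0.0576), and with the rat as a block 0.69 (adjusted p = 0.00682). It passed in 7 of 12 alternatives, 2 of them without rat 45 (0.85) or rat 56 (0.70), with adjusted p from 0.00682 to 0.136. In sham rats it measured 75.3 ± 15.2 CPM in cortex and 48.4 ± 13.9 CPM in thalamus (SD, n = 6), and the fitted log2 difference was 0.54 (SE 0.21, edgeR adjusted p = 0.0793). It passed without sham rat 32 (0.72, edgeR adjusted p = 0.0419) and with DESeq2 (0.55, adjusted p = 0.0268), with adjusted p from 0.0268 to 0.642 over 12 alternatives. The sham groups overlapped, since sham thalamus rat 32 (66.0 CPM) lay above sham cortex rats 32 and 38.

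miR-195-5p comes from the same cluster. In TBI rats it measured 231 ± 54.7 CPM in cortex and 147 ± 57.4 CPM in thalamus (SD, n = 6), and the fitted log2 difference was 0.51 (SE 0.28, edgeR adjusted p = 0.218), and with the rat as a block 0.58 (adjusted p = 0.0171). In sham rats the value was 0.32 (SE 0.26, edgeR adjusted p = 0.369). miR-16-5p, of the same seed, was not called in either group (adjusted p = 0.285 in sham and 0.546 in TBI rats, edgeR).

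miR-103-3p and miR-107-3p had fitted values of -0.46 (SE 0.20, edgeR adjusted p = 0.114) and -0.40 (SE 0.22, adjusted p = 0.198) in sham rats. Without sham rat 55 both passed, at -0.58 (adjusted p = 0.00455 in edgeR) and -0.53 (adjusted p = 0.0242). In TBI rats they were -0.08 (SE 0.27, edgeR adjusted p = 0.886) and 0.10 (SE 0.25, adjusted p = 0.854). For miR-103-3p in TBI rats the sign was not settled, as 5 of 12 alternatives turned it to between 0.0046 and 0.07.

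Ratios of reads within a library do not depend on scaling. The ratio of miR-16-5p to miR-195-5p was 3.08 to 3.86 in sham cortex and 2.49 to 3.802 in TBI cortex. In thalamus it was 3.78 to 10.6 in sham and 3.810 to 7.53 in TBI rats. The ranges of the regions overlapped narrowly in sham rats. In TBI rats they were barely apart, at 3.802 in cortex against 3.810 in thalamus. Within a rat the ratio was higher in thalamus than in cortex in 12 of 12 rats. How often ratios of other miRNAs part the regions in this way was not counted. The ratio of miR-103-3p to miR-107-3p was 9.76 ± 1.15 in sham cortex, 10.2 ± 0.816 in TBI cortex, 10.1 ± 1.13 in sham thalamus and 11.6 ± 1.70 in TBI thalamus (SD, n = 6). The ranges over rats overlapped between all 4 groups, and within a rat this ratio was higher in thalamus in 6 of 6 TBI and 3 of 6 sham rats. The ratio of miR-195-5p to miR-497-5p, both made from 1 cluster, was 2.28 ± 0.432, 2.61 ± 0.456, 2.55 ± 0.692 and 2.86 ± 0.583 in the same order of groups. The ratio of miR-15b-5p to miR-16-5p, which both lie in Smc4, stayed at or below 0.0344 in all libraries. Ligation efficiency can differ between sequences, so this ratio of reads does not measure how much of each was made.

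The precursor of miR-195 gave reads from both arms. It is printed from RefSeq because both arms were abundant, with miR-195-5p and then miR-195-3p in capitals (chr10:55450495-55450581, plus strand, GRCr8).
Mir195: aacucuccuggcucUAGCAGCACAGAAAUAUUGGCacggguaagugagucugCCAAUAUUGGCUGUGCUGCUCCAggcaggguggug

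The ratio of miR-195-5p to miR-195-3p was 1.43, 2.13 and 2.72 in sham cortex and 1.73, 3.39 and 5.10 in TBI cortex (lowest, median and highest). TBI rat 56 (1.73) lay within the sham range and the other 5 TBI rats lay above it. miR-195-3p itself had a cortical injury value of -0.14 (SE 0.18, edgeR adjusted p = 0.684) on the log2 scale, opposite in sign to miR-195-5p; the difference between the arms was not tested. In thalamus the ratio was 0.321 in sham rat 55 and 0.600 in TBI rat 56, and 1.26 to 3.87 in the other 10 libraries. In those shallow libraries miR-195-3p was the highest of its group, at 119 and 118 CPM, while miR-195-5p was the lowest, at 38.05 and 70.8 CPM.

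**Figure D4:**
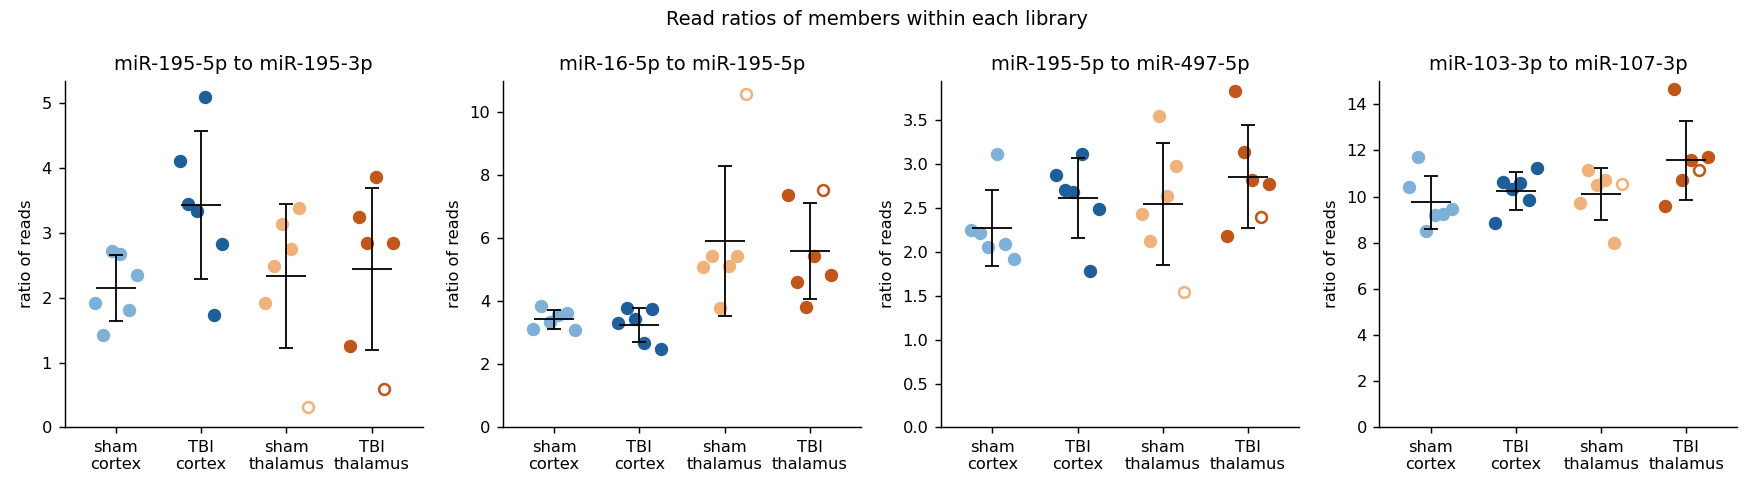
Ratios of reads within each library (vertical axes) for 4 pairs of miRNAs in the 4 groups, with 1 point per rat and bars for the mean ± SD (n = 6); open points mark the shallow thalamus libraries. The ratio of miR-195-5p to miR-195-3p fell to 0.321 and 0.600 in the shallow libraries, and the ratio of miR-16-5p to miR-195-5p reached 10.6 in sham rat 55.

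Of the 7 passenger arms, the strands usually degraded after a precursor is cut, miR-195-3p had enough reads to be tested in all 5 comparisons and miR-15b-3p in 4, the exception being the injury effect in cortex. The other 5 were near the limit of detection, with at most 8 reads in a library for miR-16-3p, 4 for miR-497-3p, 2 for miR-103-1-5p, 1 for miR-103-2-5p and 2 for miR-107-5p. The lower miR-15b-3p in sham cortex was the 1 call among the passenger arms tested.

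Related miRNAs of the X chromosome were read as a neighbouring group. miR-322-5p has the seed of the miR-15/16 type, and miR-503-5p differs from it in the last seed base.
miR-322-5p: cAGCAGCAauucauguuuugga
miR-503-5p: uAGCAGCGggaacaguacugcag
All 4 arms of this pair were tested and 0 of 4 were called in any of the 5 comparisons. In cortex their fitted injury effects were above 0, at 0.47 (SE 0.22, edgeR adjusted p = 0.219) for miR-322-5p, 0.26 for miR-322-3p, 0.24 for miR-503-5p and 0.23 for miR-503-3p. miR-322-5p was the minor arm, with 0.144 to 0.535 reads per read of miR-322-3p.

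The members varied together between libraries. After the mean of each group was removed, the Pearson correlation of log2 CPM between the 5 abundant members was 0.73 to 0.92 over the 24 libraries, and 0.37 to 0.40 between each of them and miR-15b-5p. The highest value was that of miR-103-3p with miR-107-3p. These are descriptions, since all points of a library share its depth, its scaling factor and its RNA. The shallow libraries were kept in, and how often other pairs of miRNAs correlate as highly was not counted.

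The miRNAs most like each member over the 24 libraries, by Pearson correlation of log2 CPM, were other members in some cases and outsiders in the rest. For miR-103-3p these were miR-107-3p (0.91), miR-185-5p (0.90) and miR-93-5p (0.86). For miR-107-3p they were miR-103-3p (0.91), miR-194-5p (0.85) and miR-361-5p (0.85). miR-16-5p was most like miR-17-5p (0.90), miR-93-5p (0.88) and miR-20a-5p (0.88). miR-195-5p was most like miR-23b-3p (0.92), miR-23a-3p (0.91) and miR-125a-5p (0.89). miR-497-5p was most like miR-708-5p (0.91), miR-221-3p (0.88) and miR-195-5p (0.87). For miR-15b-5p the values were lower, at 0.64 for miR-25-3p, 0.62 for miR-31a-5p and 0.60 for miR-20a-5p. miR-16-5p and miR-195-5p, nearly identical in sequence, had different nearest miRNAs in this ranking, which mixes regions and injury groups. Their correlation with each other was 0.67 over the libraries and 0.88 after group means were removed.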

How the data were processed

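The authors built small RNA libraries with a NEBNext kit, selected inserts of 15 to 40 bases, sequenced them on a NextSeq instrument, trimmed adapters, checked reads with FastQC, and mapped them to the rat assembly RGSC3.4 with miRBase 20. They deposited read counts per miRNA for each library, not normalised and not pooled, and tested each region with edgeR and TMM. The deposited CPM tables were not used here. The counts rest on RGSC3.4, whereas sequences, coordinates and overlapping genes were read from RefSeq for GRCr8 and matched by name (6 of 6 members, 655 of 728 miRNAs); no coordinates were converted.

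Groups and rat numbers came from the sample titles. The 728 miRNAs were filtered with filterByExpr, scaled by TMM and tested with the quasi-likelihood test of edgeR 4.0.16 (R 4.3.3), in each region for TBI against sham, in sham and TBI rats for cortex against thalamus, and as an interaction over 24 libraries. p-values were adjusted over all miRNAs tested by Benjamini-Hochberg, with a threshold of 0.05. SE was taken as |log2 fold change| over the root of the F statistic. Beside DESeq2 1.42.0, the alternatives were RLE scaling, library size only, no filter, a mean count of at least 50, a fit over all libraries, tRNA features in the fit, the rat as a block, and leaving out each rat. On simulated counts the fit recovered 86.0% of 2-fold changes in the cortex injury comparison and 60.3% in that of thalamus. It recovered 87.1% in the sham region comparison and 75.4% in that of TBI rats, and at least 98.4% of 4-fold changes in each. The rates cover only miRNAs that passed the filter, and the counts were drawn without an effect of the rat. Changes under 2-fold were not simulated. The members' fitted injury effects were all under 2-fold, so these rates do not give the power for them.

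Each rat gave both regions, so the rat number pairs libraries by animal. Deviations from group means correlated within a rat at a median of 0.51 (range -0.36 to 0.77, above 0.1 in 8 of 12 rats). No libraries of a group were duplicates (chi-square per degree of freedom at least 31.4 over 15 pairs a group). Named were all 6 members, the fixed lists of passenger arms, seed relatives and cell type markers, and for each member the 3 miRNAs with the highest Pearson correlation of log2 CPM (prior count 1) among those with a mean of at least 50 reads. Values of single markers were added after they were seen, for those called. The members and lists were chosen with earlier results of these data known. A floor of 3 reads covers counting error only, because duplicates from PCR are not separate molecules.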

Additional observations from a re-analysis of the deposited data

Results flagged for a closer look

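Each group of 6 libraries was searched for a library that stood far from the rest, in the levels of the members and in their ratios. Of 64 groups examined, 2 held such a library, where about 3.2 would be flagged by chance at 0.05 per group. The groups are levels and ratios from the same libraries, so they are not independent and 3.2 is a rough guide. In sham cortex, rat 38 had 3.12 reads of miR-195-5p per read of miR-497-5p, and the next highest library had 2.25. The gap was 0.718 of the range of the group. In sham thalamus, the shallow library of rat 55 had 10.6 reads of miR-16-5p per read of miR-195-5p, from 180 and 17 reads, and the next highest library had 5.45. Its gap was 0.755 of the range. No explanation was tested for either.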

How the results depend on the processing

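The number of miRNAs called in cortex (21, of which 11 were higher) went to 39 with library size only (36 higher, 3 lower), 38 with DESeq2 and 5 in the fit of all 24 libraries, and it was 15 (5 higher, 10 lower) with tRNA features in the fit. Leaving out 1 rat at a time gave 4 to 30, with 12 or fewer without TBI rats 24, 45 or 52 and without sham rats 26, 32, 38 or 50. In thalamus the count of 2 went to 1 with a mean of at least 50 reads and 5 in the fit of all libraries, and ran from 0 to 2 without single rats (0 without sham rats 26, 32 or 34). In sham rats the region count of 91 (41 higher) went to 147 with library size only (22 higher, 125 lower). In TBI rats the count of 81 (30 higher, 51 lower) was 68 (37 higher, 31 lower) with a mean of at least 50 reads. The causes of these moves were not tested.

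With the rat as a block, the region count in TBI rats went from 81 to 150 and that in sham rats from 91 to 81, and the interaction stayed at 0. The block changed no other call of a member than those of miR-15b-5p, miR-195-5p and miR-497-5p given with the region comparisons.

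The fitted direction of a member turned in these cases, none of them called. In thalamus miR-103-3p went from 0.03 to -0.080 without TBI rat 52 and -0.016 without sham rat 55 (-0.080 to 0.23 over single rats left out). In the region comparison of TBI rats it went from -0.08 to 0.067 without a filter, 0.017 with a mean of at least 50 reads, 0.0046 with DESeq2, 0.039 without rat 45 and 0.041 without rat 56 (-0.13 to 0.041 over single rats left out). In sham rats miR-195-5p went from 0.32 to -0.083 with library size only. Mean levels in sham cortex fell with library size only, to 476 CPM for miR-16-5p, 140 for miR-195-5p and 3032 for miR-103-3p. The filter of a mean of 50 reads removed miR-15b-5p, so no value was had for it. With 0 to 108 reads of miR-15b-5p per library, depth limits what can be said of this member.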
